A study of Mus musculus with 12 samples.

Results

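The transcripts of adrenomedullin and its receptor complex were examined in abdominal aortas of mice with or without CCN2 in smooth muscle. The set holds 5 genes, Adm, Calcrl, Ramp1, Ramp2 and Ramp3, found by their symbols among the 55092 features of the expression table. It was chosen by the lower Adm FPKM of saline-infused CCN2SMC∆ mice (CSS against CFS), known from an earlier look at these data, so that difference is described here without a test. RNA-Seq of 12 male mice, 3 per group, gave 1 library each. CFS and CFA were CCN2-floxed (CCN2fl/fl) mice without Cre, infused with saline or with Ang II. CSS and CSA were CCN2-floxed mice carrying Myh11-Cre-ERT2 (CCN2SMC∆), a tamoxifen-inducible Cre driven by the promoter of the smooth muscle myosin heavy chain gene, also infused with saline or Ang II. All 4 groups received 5 doses of tamoxifen at 8 weeks of age, followed by a 2-week washout. Ang II was given at 500 ng/kg/min by mini-osmotic pump, and tissue was taken on day 7. Deletion is limited to cells in which Myh11-Cre was active, so other CCN2-expressing cells of the wall keep the gene.

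Adrenomedullin is a secreted peptide that relaxes blood vessels and helps maintain the endothelial barrier. It acts on the calcitonin receptor-like receptor, encoded by Calcrl, a G protein-coupled receptor that needs a receptor activity-modifying protein (RAMP) to reach the cell surface and to choose its ligand. With RAMP2 or RAMP3 the receptor prefers adrenomedullin, whereas with RAMP1 it forms the receptor for calcitonin gene-related peptide (CGRP), a vasodilator released from sensory nerves. All these receptors signal mainly through the stimulatory G protein, adenylyl cyclase and cAMP, and Adm is a well-known target of hypoxia-inducible factors.

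On GRCm38 (mm10) with the GENCODE M21 annotation, Adm (ENSMUSG00000030790) lies on chr7:110627661-110629820 (+ strand). Calcrl (ENSMUSG00000059588) lies on chr2:84330626-84425411 (- strand), and Ramp1 (ENSMUSG00000034353) on chr1:91179822-91225196 (+ strand). Ramp2 (ENSMUSG00000001240) and Ramp3 (ENSMUSG00000041046) both lie on chromosome 11, at chr11:101246028-101259546 and chr11:6658521-6677475 (+ strand). All are protein-coding, and values sum over all exons. Ramp2 shares 33.4% of its exonic bases with Vps25 on the same strand, and Ramp3 shares 7.32% with the pseudogene Gm11978 on the opposite strand. The level of Ramp2 is therefore uncertain, since counting could divide or drop these fragments. The other 3 genes share no exonic bases.

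The 250 bases before the RefSeq transcription start (GRCm38.p6) were searched in the 4 of 5 genes that had an entry. They are shown for the 3 genes whose transcripts changed most, and capitals mark ACGTG or GCGTG on either strand, the core of the element bound by hypoxia-inducible factors:
Adm, chr7:110627407-110627656, + strand: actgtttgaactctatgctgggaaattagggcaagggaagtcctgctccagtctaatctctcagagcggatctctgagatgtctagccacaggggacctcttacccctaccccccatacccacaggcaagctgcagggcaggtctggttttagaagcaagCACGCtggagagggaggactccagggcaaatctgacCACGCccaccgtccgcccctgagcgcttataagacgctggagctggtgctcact
Ramp1, chr1:91179572-91179821, + strand: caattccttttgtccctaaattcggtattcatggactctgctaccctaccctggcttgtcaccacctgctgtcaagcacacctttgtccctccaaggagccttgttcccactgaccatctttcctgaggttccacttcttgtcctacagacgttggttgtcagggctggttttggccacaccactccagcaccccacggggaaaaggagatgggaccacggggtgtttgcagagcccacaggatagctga
Ramp3, chr11:6658283-6658532, + strand: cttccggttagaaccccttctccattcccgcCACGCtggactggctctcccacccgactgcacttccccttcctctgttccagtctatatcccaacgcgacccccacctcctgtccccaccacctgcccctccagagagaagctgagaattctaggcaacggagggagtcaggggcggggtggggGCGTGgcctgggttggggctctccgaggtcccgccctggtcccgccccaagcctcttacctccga
The Adm window held 2 such matches, both GCGTG on the minus strand, at 90 to 86 and 54 to 50 bases before the start. The Ramp3 window also held 2, at 219 to 215 bases (minus strand) and 65 to 61 bases (plus strand), and those of Ramp1 and Calcrl held none. Of all 32851 promoter windows of this length, 38.6% held at least 1 match, so such a match is common. CACCC, the core bound by many Krüppel-like factors, was present in Calcrl (1 match), Ramp1 (2) and Ramp3 (2), absent from the Adm window, and found in 52% of all windows. The CArG box, bound by serum response factor, was in none of the 4 windows (1.47% of all windows), nor was the AP-1 element TGACTCA (4.46%).

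Values are FPKM, fragments scaled to exon length and library size, as deposited by the authors, and are given as mean ± SD (n = 3 mice). Recovered fragments totalled 14558580 to 23107807 per library. Smooth muscle markers were abundant in CFS, CSS and CFA, as the labelled tissue requires, but low in CSA, where Myh11 averaged 39.9 FPKM. The targeted gene Ccn2 was at 480.1 to 1108 FPKM in CFS, 436 to 640 in CSS, 564 to 1105 in CFA and 255 to 399 in CSA. Its transcript did not separate the saline genotypes (log2 fold change -0.40, SE 0.34, limma adjusted p = 1), but was lower in CSA than in CFA (-1.41, SE 0.34, adjusted p = 0.00622). Which Ccn2 exons are floxed was not given in the sources used here, and Ccn2 shares 23.2% of its exonic bases with Gm15270 on the opposite strand. This check of the genotype is therefore limited. The paper reports a strong loss of Ccn2 mRNA by qPCR under Ang II, and less CCN2 protein under both treatments. The library of CSA mouse 03 stood apart from the other CSA libraries, at root mean square log2 differences of 1.21 and 1.20 against 0.505 between those 2, and it was the shallowest. It also had only 273 features at 1 fragment, against 1132 in the next lowest library (CFS mouse 68), and the most features at 0 (36027). The cause was not tested. Skeletal muscle transcripts were present in CFS mouse 68 and CSS mouse 55 (summed markers 153 and 244 FPKM, and at most 5.57 in CFA and CSA). Endothelial transcripts were low in CFS mouse 69 (Pecam1 38.3 FPKM, against 199 and 187.5 in the other CFS mice).

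Adm, the ligand, was present in every library. Under saline it was 27.7, 33.3 and 25.4 FPKM in the CFS mice (68, 69 and 70) and 12.1, 10.9 and 10.6 FPKM in the CSS mice (54, 55 and 56). Under Ang II it was 16.8, 17.9 and 21.0 FPKM in the CFA mice (71, 72 and 74) and 3.35, 4.16 and 3.83 FPKM in the CSA mice (01, 02 and 03). The levels fell into 4 separate bands, in the order CFS, CFA, CSS and CSA, and no group overlapped its neighbour in that order.

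**Figure D1:**
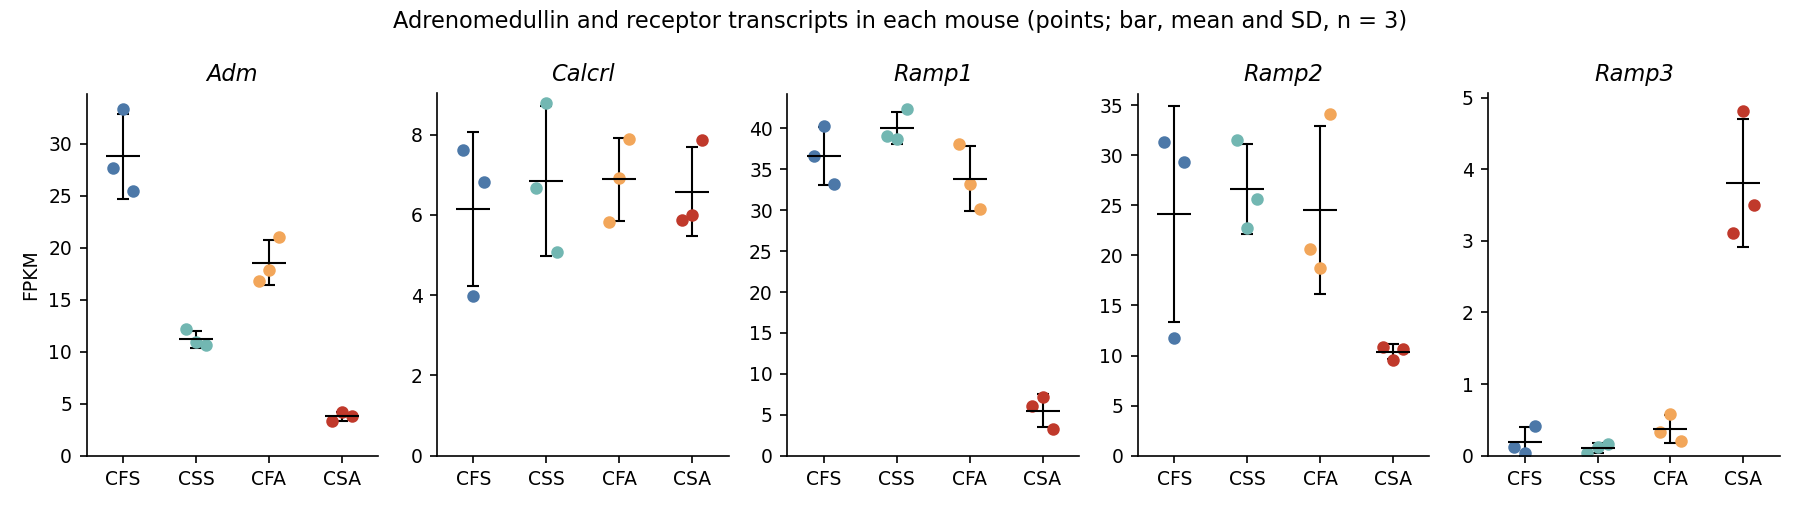
FPKM of each gene (y axis, from 0, scaled per panel) in each of the 12 mice (points), by group on the x axis, with bars for mean and SD (n = 3). Adm forms 4 separate bands, from 28.8 FPKM on average in CFS to 3.78 in CSA; Ramp1 and Ramp2 are lowest and Ramp3 highest in CSA, and Calcrl is level.

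Between the saline groups, mean Adm was 28.8 ± 4.08 FPKM in CFS and 11.2 ± 0.816 in CSS, a log2 difference of -1.35 (SE 0.14) on the log2(FPKM + 0.1) scale used for all fitted differences, or 2.54-fold lower. This is the contrast by which the set was chosen, and it carries no test here. Of the 5 genes, Adm alone had saline groups that did not overlap, which was so for 20.4% of all tested genes. Across the 14676 tested genes only 3 (0.0204%) had an adjusted p under 0.05 between CSS and CFS, and 924 an unadjusted p under 0.05 (limma).

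Adm was also lower in CSA (3.78 ± 0.411 FPKM) than in CFA (18.6 ± 2.17), in libraries outside the saline contrast. Earlier results of these data were known when the set was chosen, so the p-values here are not independent support. The log2 fold change was -2.26 (SE 0.14, limma adjusted p = 1.31e-06), or 4.81-fold lower, and all 3 CSA mice lay below all 3 CFA mice. That SE and p draw on the spread of all 12 libraries, the saline ones included. In a fit of the CSA and CFA libraries alone the log2 fold change was again -2.26 (SE 0.17, limma adjusted p = 0.000698). Without CSA mouse 03 it was -2.28 (adjusted p = 1.73e-06). The Adm fragments behind these values numbered 95 to 143 per library in CSA and 593 to 720 in CFA.

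The Ang II contrasts of Adm share the saline libraries used in the choice, so they too are descriptions. Adm was lower in CFA than in CFS (log2 difference -0.63, SE 0.14) and lower in CSA than in CSS (-1.55, SE 0.14). The genotype difference of Adm under Ang II minus that under saline was -0.92 (SE 0.20) on the log2 scale, a value that was not tested.

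Calcrl, the receptor that all 3 RAMPs share, stayed at a similar level in the 4 groups. It was 7.62, 3.97 and 6.83 FPKM in CFS, 6.68, 8.79 and 5.07 in CSS, 5.82, 6.93 and 7.90 in CFA, and 5.88, 5.997 and 7.87 in CSA. Every group overlapped every other, and the lowest value was in CFS mouse 69, the library with low endothelial transcripts. Means ran only from 6.14 ± 1.92 FPKM in CFS to 6.89 ± 1.04 in CFA, so their order does not exceed the spread. Between CSA and CFA the log2 fold change was -0.07 (SE 0.26, adjusted p = 0.865), with a 95% interval from -0.65 to 0.52 that leaves room for a moderate change in either direction. Its sign turned without CFA mouse 74 (0.04) and without CSA mouse 01 (0.01).

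Ramp1, the CGRP receptor partner, was abundant in the 3 groups other than CSA. It was 36.6, 40.2 and 33.2 FPKM in CFS and 39.1, 38.75 and 42.3 in CSS. Under Ang II it was 38.1, 33.3 and 30.2 FPKM in CFA, but 6.06, 7.18 and 3.28 in CSA. All 3 CSA mice lay far below every other mouse, CFS overlapped both CSS and CFA, and the lowest CSS mouse lay just above the highest CFA mouse. Ramp1 fell from 33.9 ± 4.002 FPKM in CFA to 5.51 ± 2.01 in CSA, a log2 fold change of -2.66 (SE 0.24, adjusted p = 1.05e-05), or 6.34-fold. Without CSA mouse 03, the lowest, it was -2.34 (adjusted p = 7.63e-07).

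Ramp2, the partner that makes the adrenomedullin receptor of endothelium, varied more among mice. It was 31.4, 11.7 and 29.3 FPKM in CFS and 31.5, 22.7 and 25.6 in CSS. Under Ang II it was 20.7, 18.7 and 34.1 FPKM in CFA and 10.9, 9.51 and 10.7 in CSA. The CSA mice were lowest and close together, and only CFS mouse 69 came near them. Ramp2 was lower in CSA (10.4 ± 0.741 FPKM) than in CFA (24.5 ± 8.39), with a log2 fold change of -1.18 (SE 0.35, adjusted p = 0.0181), short of the fold limit of 1.5. This call was lost without CFA mouse 74 (-0.92, adjusted p = 0.0775) and without CSA mouse 02 (-1.12, adjusted p = 0.0507).

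Ramp3, the inducible partner that also forms an adrenomedullin receptor, was nearly undetected outside CSA. It was 0.118, 0.0387 and 0.420 FPKM in CFS, 0.0390, 0.117 and 0.167 in CSS, and 0.333, 0.581 and 0.205 in CFA. In CSA it was 3.11, 4.82 and 3.499 FPKM, above every other mouse, and among the other groups only CSS and CFA did not overlap. These values rest on few fragments: 1 to 10 per library in CFS, 1 to 5 in CSS, 6 to 17 in CFA and 74 to 141 in CSA. The summed fragments, 302 in CSA and 33 in CFA, gave a ratio of 10.3 after correction for library size (exact 95% interval 7.20 to 15.3, counting error only). Against the 9 fragments of CSS the ratio was 34.8 (18.1 to 76.7), and against the 14 of CFS it was 20.7 (12.1 to 38.2).

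The fitted log2 fold change of Ramp3 between CSA and CFA was 3.10 (SE 0.54). Ramp3 entered this fit only through its 3 CSA libraries, which alone reached 1 FPKM, so a gene admitted this way had to differ between CSA and the rest, and no p is given from it. Of the 14676 tested genes 1206, Ramp3 included, would not have entered without their CSA libraries. Not all of them differed as Ramp3 did, and Higd1b had a log2 fold change of -0.18 between CSA and CFA. In the fit with no filter on low values, which every gene enters, the log2 fold change was again 3.10 (SE 0.50, adjusted p = 0.00108). Its size depends on the pseudocount, at 1.80 with 1 and 3.41 with 0.01 in place of 0.1. The CSA mice other than 03, at 3.11 and 4.82 FPKM, also lay above the highest CFA mouse.

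Of the 4 genes other than Ramp3, 3 had an adjusted p under 0.05 between CSA and CFA, where 40.7% of all tested genes did (19.5% rose and 21.2% fell). At an absolute log2 fold change over 1.5 as well, the limit for calling a gene differentially expressed, Adm and Ramp1 remained, both lower in CSA. By that measure 17.2% of tested genes were called, 8.27% lower and 8.95% higher. Without CSA mouse 01 or 02, the genes called higher numbered 836 or 850 in place of 1314. Those called lower numbered 1327 or 1328 in place of 1214. The groups did not overlap for 3 of these 4, against 48.5% of all tested genes. With so few genes beside so wide a background, these counts are a description only.

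**Figure D2:**
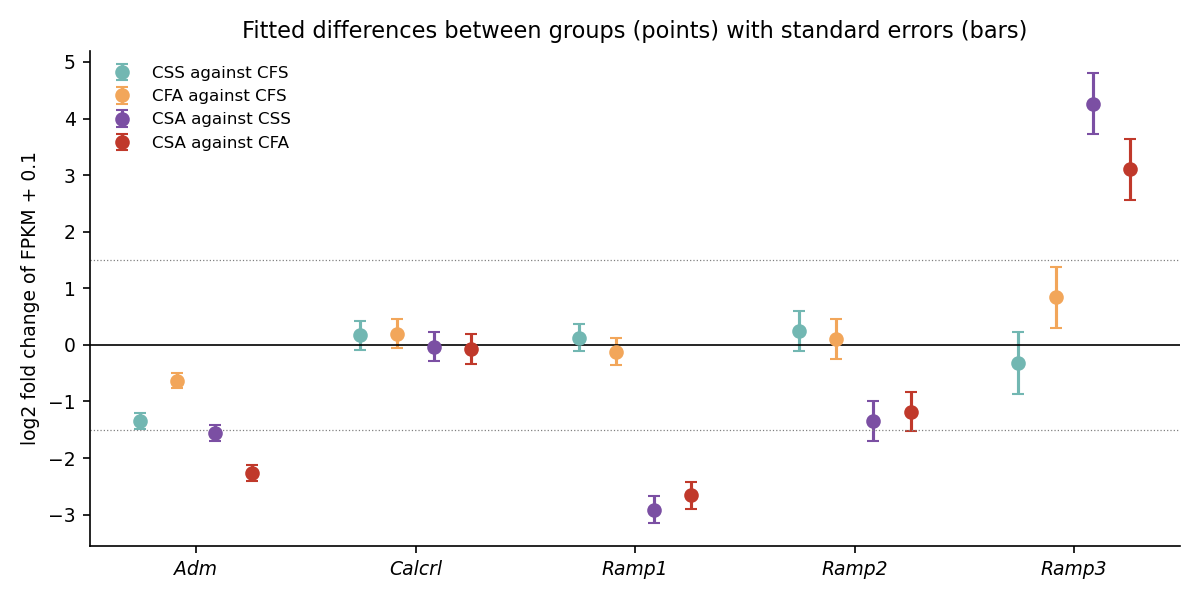
Fitted log2 fold changes of FPKM + 0.1 (points, y axis) with standard errors (bars) for each gene (x axis) in 4 comparisons, with dotted lines at the fold limit of 1.5. Adm lies below 0 in all 4, Ramp1 and Ramp2 lie far below 0 only where CSA is compared, Ramp3 lies beyond the upper limit there and at 0.84 between CFA and CFS, and Calcrl stays near 0.

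In CCN2fl/fl mice, Calcrl, Ramp1 and Ramp2 did not pass the test between Ang II and saline, nor was any of their unadjusted p-values under 0.05 (limma). The log2 fold changes between CFA and CFS were 0.20 for Calcrl (SE 0.26, adjusted p = 0.923), -0.12 for Ramp1 (SE 0.24, adjusted p = 0.957), 0.10 for Ramp2 (SE 0.35, adjusted p = 0.974) and 0.84 for Ramp3, for which the fit with no filter gave an SE of 0.50 and an adjusted p of 0.856. The signs for Calcrl (-0.08) and Ramp2 (-0.36) turned without CFS mouse 69, and that for Ramp2 also without CFA mouse 74 (-0.17). That for Ramp3 ran from 0.41 without CFS mouse 69 to 1.37 without CFS mouse 70, and was 0.21 with a pseudocount of 1. Only 5 genes in all (0.0341%) passed in this comparison, and 1383 had an unadjusted p under 0.05. Adm was the only gene of the set without overlap, as were 20.2% of tested genes.

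In CCN2SMC∆ mice, Ang II was accompanied by lower Ramp1 and Ramp2 and higher Ramp3. Between CSA and CSS, Ramp1 fell from 40.1 ± 1.97 to 5.51 ± 2.01 FPKM (log2 fold change -2.91, SE 0.24, adjusted p = 3.9e-06). Ramp2 fell from 26.6 ± 4.50 to 10.4 ± 0.741 FPKM (-1.34, SE 0.35, adjusted p = 0.00813). Ramp3 went from 0.108 ± 0.0643 to 3.81 ± 0.896 FPKM (4.26, SE 0.54), under the same limit on its entry into the fit, and in the fit with no filter its log2 fold change was 4.26 (SE 0.50, adjusted p = 9.62e-05). With a pseudocount of 1 it was 2.10 and with 0.01 it was 5.18. Calcrl did not pass (-0.03, SE 0.26, adjusted p = 0.927, 95% interval -0.62 to 0.55). Across all tested genes 46.2% passed in this comparison, 20.3% were differentially expressed and 55.4% had groups that did not overlap. Of Calcrl, Ramp1 and Ramp2, 2 passed and Ramp1 alone was differentially expressed. This comparison shares the CSA mice with that of CSA and CFA, so both rest on the same low Ramp1 and high Ramp3 libraries.

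Under saline the receptor genes had log2 differences between CSS and CFS of 0.17 for Calcrl (SE 0.26), 0.13 for Ramp1 (SE 0.24), 0.25 for Ramp2 (SE 0.35) and -0.32 for Ramp3 (SE 0.54). All 4 overlapped. The sign turned for Calcrl without CFS mouse 69 (-0.11) or CSS mouse 55 (-0.02), for Ramp2 without CFS mouse 69 (-0.20), and for Ramp3 without CFS mouse 70 (0.21). The genotype difference under Ang II minus that under saline was -2.79 for Ramp1 (SE 0.33), -1.44 for Ramp2 (SE 0.49), 3.42 for Ramp3 (SE 0.76) and -0.24 for Calcrl (SE 0.37), which turned to 0.04 without CFS mouse 69 and was -0.04 without CSS mouse 55. These were not tested, because they contain the saline contrast.

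Because FPKM is per length, the RAMPs can be set beside one another within a library, with the limit that Ramp2 shares exonic bases with Vps25. Vps25 was listed at 0 to 0.480 FPKM in all libraries, so fragments of the shared bases may have been left out of both genes. As deposited, Ramp1 made up 61.3% ± 13.9 of the summed RAMP FPKM in CFS, 60.1% ± 4.18 in CSS and 58.2% ± 9.88 in CFA, but 27.5% ± 7.68 in CSA. Ramp2 made up 38.4% ± 13.7, 39.7% ± 4.27, 41.2% ± 10.2 and 53.2% ± 8.53 in the same order, and its CSA range (44.2% to 61.2%) overlapped each of the others. Ramp3 was at most 1.10% in any mouse outside CSA, and 15.5%, 22.4% and 20.02% in the CSA mice. The sum itself was 61.0 ± 8.19 FPKM in CFS, 66.8 ± 4.69 in CSS, 58.7 ± 5.98 in CFA and 19.7 ± 2.04 in CSA, so the larger Ramp2 share in CSA came with a lower Ramp2 level. If no fragment of the shared bases was counted, Ramp2 over its unshared bases would be 36.2 ± 16.2 FPKM in CFS, 39.96 ± 6.75 in CSS, 36.8 ± 12.6 in CFA and 15.6 ± 1.11 in CSA. Ramp1 would then take 52.0% ± 15.2 of the sum in CFS, 50.2% ± 4.34 in CSS, 37.0% to 54.9% in the CFA mice and 21.8% ± 6.69 in CSA, so whether Ramp1 or Ramp2 is the higher in the first 3 groups is not settled. RNA shares say nothing of which receptor proteins were assembled in which cells.

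**Figure D3:**
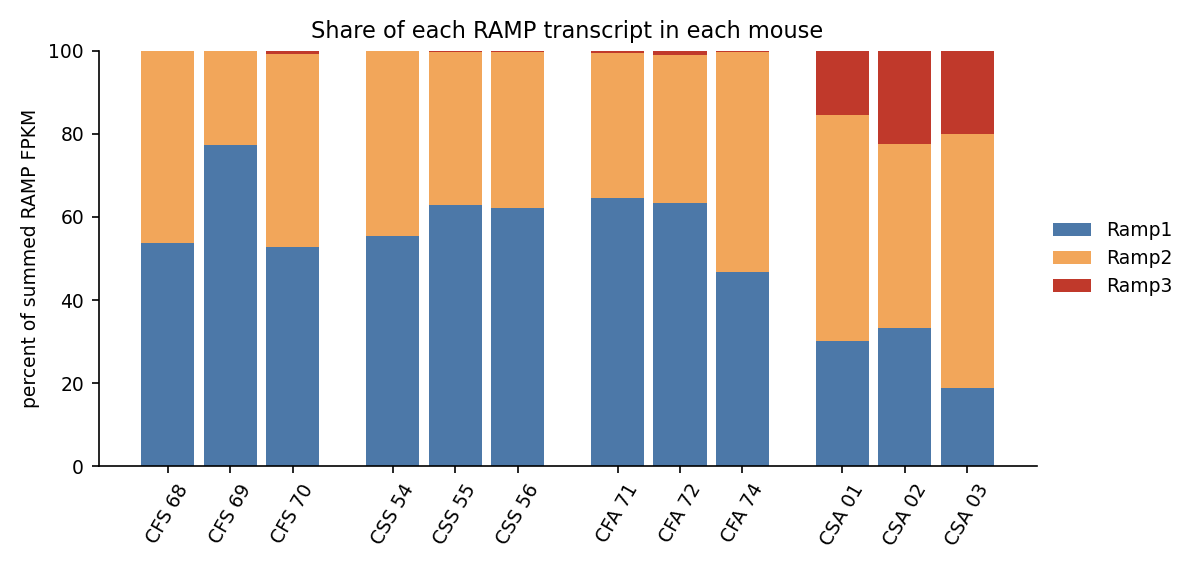
Percent of the summed RAMP FPKM (y axis) taken by Ramp1, Ramp2 and Ramp3 in each of the 12 mice (x axis, bars by group). Ramp3 is barely visible outside CSA, where it takes 15.5% to 22.4%, and Ramp1 falls to 18.8% to 33.4%.

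Set against the receptor, Ramp1 FPKM was 6.60 ± 3.06 times that of Calcrl in CFS, 6.20 ± 1.99 in CSS, 5.06 ± 1.38 in CFA and 0.882 ± 0.411 in CSA. For Ramp2 the ratio was 3.78 ± 0.725, 4.12 ± 1.34, 3.52 ± 0.808 and 1.60 ± 0.246 in that order. In CSA mice 01 and 02 the Ramp1 and Calcrl levels were thus close (ratios 1.03 and 1.20), and in mouse 03 Ramp1 was the lower (0.417).

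The paper reports infrarenal aneurysms with a thickened wall in nearly all Ang II-infused CCN2SMC∆ mice. Few Ang II-infused CCN2fl/fl mice had any, and these were mild and elsewhere in the aorta. The labels do not say which sequenced mice had one. Differences between CSA and other groups may thus hold genotype and diseased wall together, which cannot be told apart here. In whole aorta, fewer cells of a type and less RNA per cell cannot be told apart either, and markers of several cell types moved between CSA and CFA. Counts of marker lists are read against the 19.5% of all tested genes that rose and the 21.2% that fell in this comparison. All 10 smooth muscle markers fell, and their summed FPKM was 823 to 977 in CSA against 5699 to 8597 in CFA, 7911 to 8964 in CSS and 8413 to 10560 in CFS. Myh11, the smooth muscle myosin whose promoter drives Cre, fell from 718 ± 19.8 to 39.9 ± 5.86 FPKM (log2 fold change -4.17, SE 0.14, adjusted p = 8.05e-08), and Acta2, smooth muscle actin, from 5421 ± 1397 to 730.0 ± 45.5 (-2.86, SE 0.19, adjusted p = 1.54e-06). Ramp1 moved with them, but as a percentage of Myh11 FPKM it was 3.57 ± 0.206 in CFS, 4.33 ± 0.297 in CSS, 4.72 ± 0.523 in CFA and 14.4 ± 6.43 in CSA. As a percentage of Acta2 FPKM it was 0.540 ± 0.0129, 0.645 ± 0.0334, 0.647 ± 0.138 and 0.745 ± 0.234 in the same order. There CSA overlapped every other group, and CSA mouse 03 (0.480) was the lowest of all, so whether there is a shift depends on the marker. The part of smooth muscle content in the Ramp1 and Adm values was not tested. Under saline, where Adm was lower, none of the 10 smooth muscle markers passed, as was so for nearly all genes (0.0204% passed), and Myh11 was 1031 ± 136 FPKM in CFS and 929 ± 80.4 in CSS (-0.15, SE 0.14, adjusted p = 1).

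Summed markers of other wall cells also differed. Pericyte markers summed to 697 to 1187 FPKM in CFS, 1641 to 1817 in CSS, 779 to 1443 in CFA and 227 to 246 in CSA. Of the 5 other than Higd1b, which entered the fit only through CSA, 4 fell between CSA and CFA and Kcnj8 did not pass. The sums follow Rgs5, the most abundant of them, named after its values were seen, at 854 ± 257 FPKM in CFS, 1597 ± 95.8 in CSS, 969 ± 333 in CFA and 180.0 ± 17.7 in CSA. Fibroblast markers summed to 1994 to 2496 FPKM in CFS, 1568 to 1811 in CSS, 2863 to 3176 in CFA and 4578 to 5431 in CSA. Between CSA and CFA 3 of 8 rose and 3 fell, from a list too short to set apart from those background shares. The fibroblast sums follow the collagens Col1a1 and Col1a2, the most abundant of the list, named after their values were seen. These averaged 1439 and 649.5 FPKM in CFA and 2823 and 1120 in CSA, whereas Dpt, Pi16 and Scara5 fell. Under saline, where Adm was lower in CSS, no pericyte, fibroblast or lymphatic endothelial marker passed the test, which says little at the same 0.0204%. The sums of these 3 lists did not overlap between CFS and CSS (lymphatic 35.3 to 40.8 and 23.0 to 25.3 FPKM). Those of the other cell marker lists did, and 20.4% of single tested genes had saline groups without overlap. Median log2 differences between CSS and CFS were 0.08 for pericyte, -0.36 for fibroblast and -0.56 for lymphatic markers, so the higher pericyte sum in CSS is not shared across its list. The part of these cell types in the Adm, Calcrl and Ramp1 values was not tested.

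Endothelial cells are the other known site of Calcrl and Ramp2. Of 14 endothelial markers tested, 3 fell, 2 rose and 9 did not pass, near the 40.7% of all tested genes that passed, and their summed FPKM was 208 to 613 in CFS, 496 to 647 in CSS, 382 to 677 in CFA and 238 to 334 in CSA. Pecam1, an endothelial adhesion molecule, fell from 131 ± 55.4 to 34.7 ± 7.67 FPKM (-1.84, SE 0.56, adjusted p = 0.0215). Cdh5, the endothelial cadherin, was 47.7 ± 11.6 in CFA and 36.7 ± 7.26 in CSA (-0.36, SE 0.40, adjusted p = 0.501). Calcrl as a percentage of Cdh5 FPKM was 17.5 ± 6.36, 16.5 ± 4.43, 14.95 ± 3.98 and 18.6 ± 5.74 in CFS, CSS, CFA and CSA, whereas Ramp2 was 63.3 ± 9.78, 64.3 ± 9.75, 51.0 ± 7.93 and 28.8 ± 4.59. Against Pecam1 the order was the reverse for Ramp2, at 19.6 ± 4.62 in CFA and 30.6 ± 5.34 in CSA, though CSA mouse 03 (24.6) lay below CFA mouse 72 (24.7) and CFS mouse 69 was at 30.7. Calcrl went from 5.93 ± 2.78 in CFA to 19.1 ± 1.19 in CSA, without overlap with any group. The reading thus depends on the marker used. In CFS mouse 69 Ramp2, Calcrl, Pecam1 and Cdh5 were all the lowest of their group. The part of endothelial content in these values was not tested.

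Leukocyte transcripts rose in CSA, the group with high Ramp3. Of 9 macrophage markers other than Itgam, which entered the fit only through CSA, 8 rose and 1 fell, and the summed FPKM of all 10 was 2368 to 2539 in CSA, against 349 to 727 in CFA, 308 to 370 in CSS and 283 to 336 in CFS. Cd68, a lysosomal glycoprotein of macrophages, rose from 14.1 ± 8.63 to 104 ± 5.76 FPKM (3.04, SE 0.31, adjusted p = 2.37e-05). Adgre1, which encodes F4/80, rose from 9.84 ± 3.97 to 72.1 ± 6.17 (2.93, SE 0.25, adjusted p = 8.64e-06). Neutrophil markers summed to 512.5 to 564 FPKM in CSA and 11.0 to 28.0 in CFA. Of the 6 tested, 3 (Cxcr2, Mmp8 and Retnlg) also entered the fit only through CSA, and the other 3 rose. Lymphatic endothelial markers summed to 57.5 to 91.0 FPKM in CSA and 28.6 to 45.3 in CFA, with 1 of 4 tested rising and 1 falling, near the same 40.7%. The riser was Pdpn (8.77 to 48.8 FPKM on average), named after its values were seen, and without it the sum was 13.7 to 27.3 in CSA and 20.7 to 33.5 in CFA. Prox1, the defining transcription factor, was at 1.70, 0.438 and 1.33 FPKM in CSA and was too low for testing. Whether the Ramp3 reads came from any of these cells was not tested.

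Adipocyte markers varied widely, with summed FPKM of 674 to 2933 in CFS, 164 to 817 in CSS, 311 to 923.5 in CFA and 95.7 to 305 in CSA. Between CSA and CFA 3 of 8 fell and none rose, beside the 21.2% of all tested genes that fell. Between CSS and CFS none passed, where 0.0204% of all tested genes did. Their median log2 difference there was -1.21, against 0.01 for all tested genes. Adipoq, the adipocyte hormone adiponectin, was 78.8 ± 69.6 FPKM in CFS and 32.9 ± 23.1 in CSS (-1.16, SE 0.73, adjusted p = 0.94), so it was lower on average in the group with lower Adm. Within CFS it was highest in mouse 70 (159 FPKM), which had the lowest Adm of that group. Its part in the Adm difference was not tested.

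**Figure D4:**
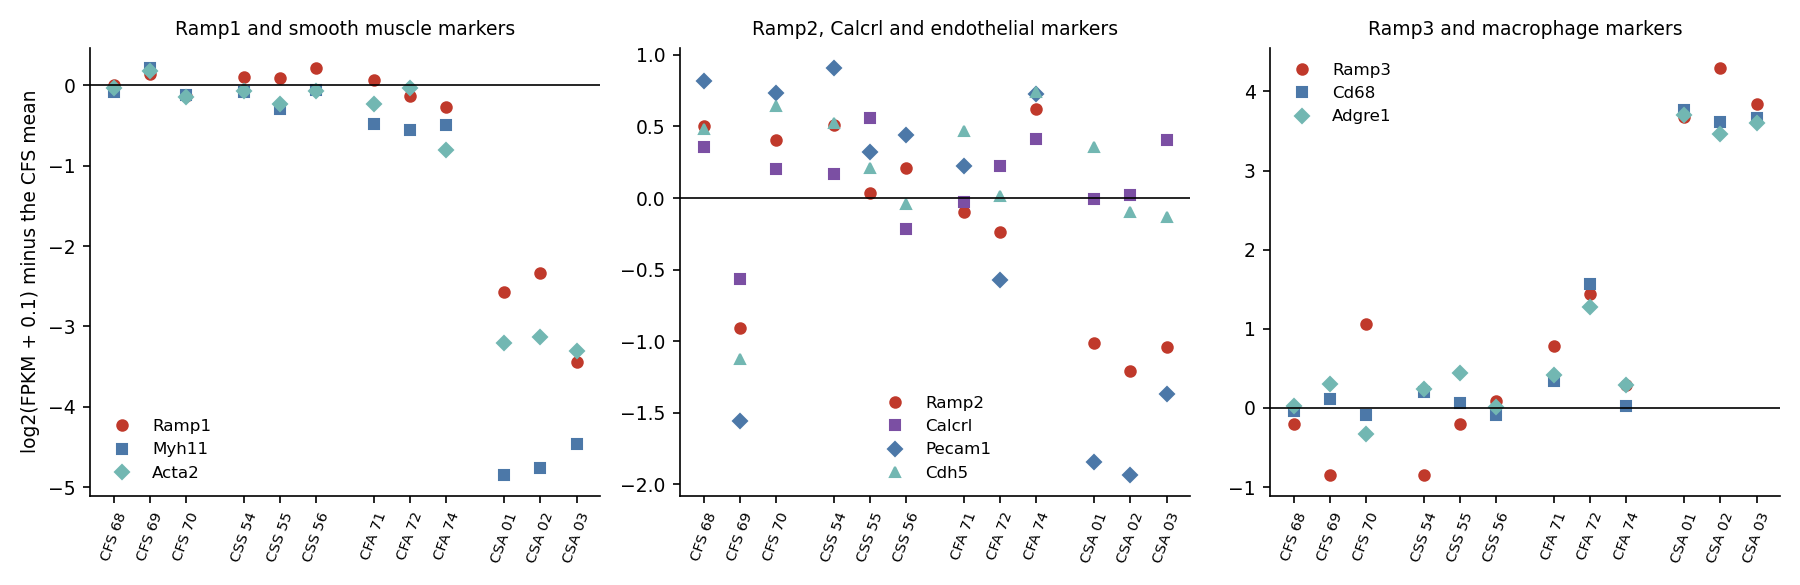
log2(FPKM + 0.1) minus the CFS mean (y axes) in each mouse (x axes) for receptor genes and cell type markers. Ramp1 falls in CSA, though less than Myh11, and Ramp3 is high in the mice with high Cd68 and Adgre1. Between CFA and CSA the mean of Ramp2 falls less than that of Pecam1 and more than that of Cdh5.

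The genes whose pattern was most like each member were ranked by Pearson's r of log2(FPKM + 0.1) over the 12 libraries among 13470 genes, as a description. The libraries share their group structure, so genes that differ between groups in the same way have a high r. Adm was closest to Ntrk2, a neurotrophin receptor (r = 0.972), and to Daam2, a formin-related protein (r = 0.969), with a feature without a gene symbol between them (r = 0.970). Ntrk2 averaged 4.71 FPKM in CFS, 2.28 in CSS, 3.09 in CFA and 0.712 in CSA, and Daam2 averaged 4.17, 2.50, 2.95 and 1.06, in the order of levels seen for Adm. Ramp1 was closest to Rab11fip3 (r = 0.998), Rras (r = 0.997) and Ntn1 (r = 0.997), the last of which, encoding netrin-1, averaged 79.3 FPKM in CFA and 9.98 in CSA. Ramp2 was closest to the endothelial genes Ptprb (r = 0.985), Pecam1 (r = 0.983) and Gja5 (r = 0.980), all lower on average in CSA (9.12, 34.7 and 3.24 FPKM) than in CFA (40.5, 131 and 22.0). Ramp3 was closest to Ndufs4 (r = 0.989), Rfc4 (r = 0.982) and Calhm6 (r = 0.980). With only 1 to 17 Ramp3 fragments a library outside CSA, these values rest mainly on the high CSA libraries. Calhm6 too was low outside CSA, averaging 0.613 FPKM in CFA and 9.25 in CSA. Calcrl had no close match, its highest values being 0.850 for Mal, 0.811 for Efemp1 and 0.806 for Rab11a.

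Of 56 other genes of the pathway in 6 lists, 43 were tested between CSA and CFA. Dpp4 entered the fit only through CSA and is left out of the counts. Of the other 42 genes 8 rose, 15 fell and 19 did not pass, so 23 passed beside 40.7% of all tested genes, and their median log2 fold change was -0.10, against -0.04 for all tested genes. Differentially expressed genes numbered 1 up and 6 down, a share close to the 17.2% of the background. No pathway gene passed between CSS and CFS or between CFA and CFS (limma). There 1 and 5 of the 43 genes, Dpp4 included, had an unadjusted p under 0.05. Over all 14676 tested genes 0.0204% and 0.0341% passed and 924 and 1383 had an unadjusted p under 0.05, so these low counts are not particular to the pathway. Between CSA and CSS, 10 of the 42 rose and 17 fell, beside the 46.2% of all tested genes that passed there. The counts of single lists that follow are read against the same 19.5% and 21.2% between CSA and CFA, and with 3 to 15 genes each they are descriptions of the lists.

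Among genes for maturation and breakdown of the peptide, 3 of the 5 tested other than Dpp4 fell and 2 did not pass. Pam, the enzyme that amidates the end of adrenomedullin and so makes it active, fell from 164 ± 33.6 FPKM in CFA to 49.5 ± 4.68 in CSA (log2 fold change -1.71, SE 0.15, adjusted p = 8.64e-06). Mme, the peptidase neprilysin that can degrade it, fell from 2.71 ± 0.893 to 0.283 ± 0.152 (-2.89, SE 0.35, adjusted p = 8.5e-05). Dpp4, a dipeptidyl peptidase of the cell surface, went from 0.639 ± 0.346 to 3.63 ± 0.810 (2.43, SE 0.45), but entered the fit only through CSA, so no p is given. Among related ligands and receptors, 3 of 8 were tested, and 1 fell without reaching the fold limit.

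Downstream of the receptor, 4 of 8 tested genes for the stimulatory G protein and adenylyl cyclases fell and none rose. Adcy5, a cAMP-forming adenylyl cyclase, fell from 127 ± 0.226 FPKM to 10.1 ± 5.25 (-3.78, SE 0.32, adjusted p = 7.33e-06), and Adcy9 from 5.81 ± 0.484 to 1.62 ± 0.662 (-1.86, SE 0.27, adjusted p = 0.000237). Of 9 cAMP effectors 5 fell and 1 rose, and Akap12, an anchor of protein kinase A, fell from 33.5 ± 3.57 to 8.37 ± 2.68 (-2.03, SE 0.20, adjusted p = 1.72e-05). Of 9 phosphodiesterases, which break cAMP down, 3 rose and 1 fell. That 1 was Pde3a, at 30.8 ± 4.16 FPKM in CFA and 8.46 ± 0.592 in CSA (-1.85, SE 0.13, adjusted p = 2.63e-06).

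Receptor kinases and arrestins end signaling at the membrane, and other genes of this list, such as Nsf and Slc9a3r1, act in receptor recycling and retention there. Of the 8 genes 4 rose and 1 fell. Beside Arrb2, those that rose were Slc9a3r1 (log2 fold change 1.42), Grk2 (0.83) and Nsf (0.43), and Grk5 fell (-0.67), all named after their values were seen. Arrb2, β-arrestin 2, rose from 6.98 ± 2.76 to 60.02 ± 12.2 FPKM (3.13, SE 0.25, adjusted p = 5.11e-06). The smooth muscle and leukocyte markers described above moved in the same libraries, and their part in these changes was not tested.

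**Figure D5:**
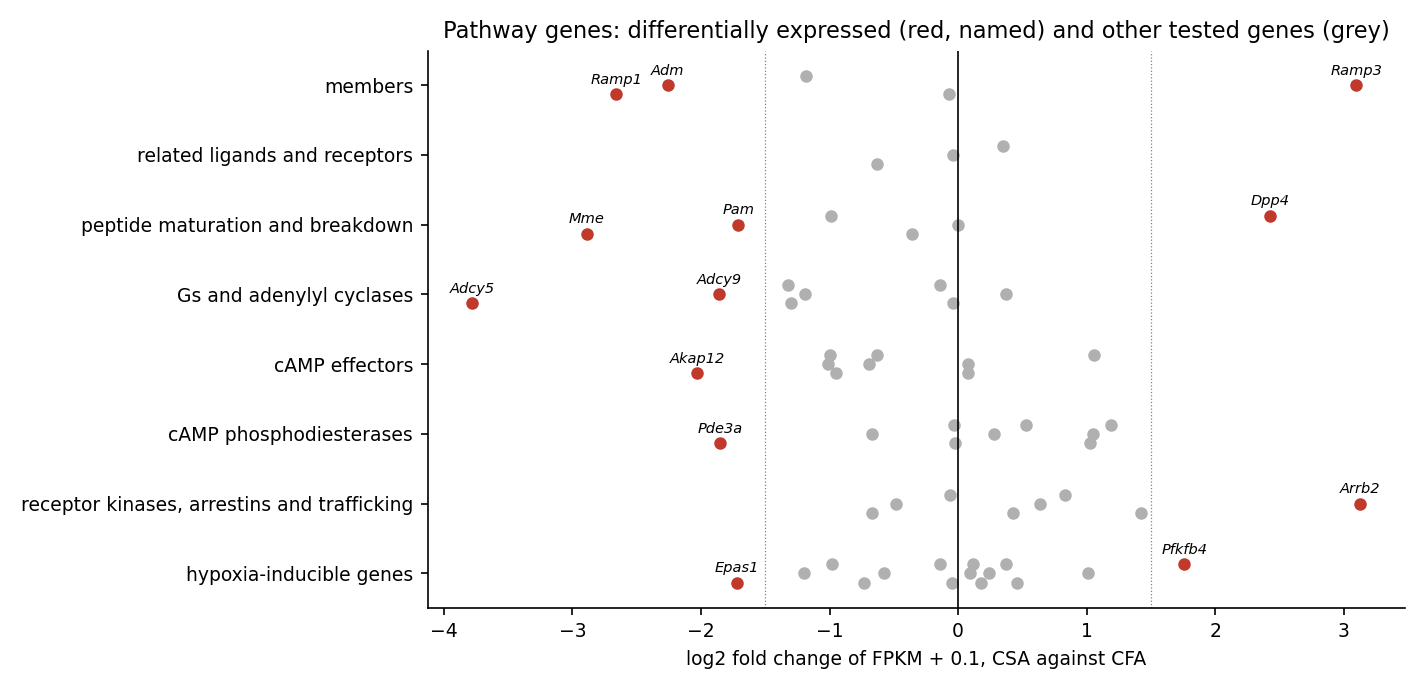
Log2 fold change of FPKM + 0.1 between CSA and CFA (x axis) for the members and for the tested genes of each list (rows), with differentially expressed genes red and named, others grey, and dotted lines at the fold limit. Cyclase and effector genes lie mostly below 0, whereas Dpp4, Arrb2 and Pfkfb4 lie beyond the limit on the right. Ramp3 and Dpp4 entered the fit only through CSA, so no call is read from it for either.

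Since Adm is a hypoxia-inducible gene, 16 other genes of the hypoxia response were listed, of which 15 were tested. Between CSS and CFS none passed and none had an unadjusted p under 0.05 (limma), where 924 of all 14676 tested genes did, too few to read an absence from a list of 15. Their median log2 difference was -0.21, against 0.01 for all tested genes. Between CFA and CFS none passed and 1 had an unadjusted p under 0.05, with a median of -0.23. Between CSA and CFA, where Adm was 4.81-fold lower, 2 rose, 3 fell and 10 did not pass. Pfkfb4, a regulator of glycolysis, rose from 3.04 ± 0.0816 to 10.8 ± 2.86 FPKM (1.76, SE 0.20, adjusted p = 5.02e-05). Epas1, which encodes HIF-2α, fell from 102 ± 28.3 to 30.3 ± 3.70 (-1.72, SE 0.22, adjusted p = 0.00013). The other passing genes fell short of the fold limit and are named after their values were seen. Hif1a, which encodes HIF-1α, rose from 30.1 ± 7.48 to 61.5 ± 20.9 FPKM (1.01, SE 0.24, limma adjusted p = 0.00574), and Egln1 (-0.98) and Ndrg1 (-1.20) fell.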

How the data were processed

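RNA-Seq of poly(A) RNA from abdominal aortas gave 1 library per mouse. The authors deposited FPKM per gene and mouse, unpooled, in a single table of 55092 features, and 0 columns of it went unused. The submitters' processing notes name HISAT2 2.0.5, StringTie 1.3.3b, featureCounts 1.5.0-p3 and mm10, and whether strand was used in counting is not given in the sources used here. Groups came from the sample labels.

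GENCODE M21 gave symbols to 54409 and exon lengths to 54495 features. With these lengths, 98.1% to 98.5% of values under 100 fragments were whole (tolerance 0.05), and sums of fragments served as depth, so the precision of low genes was limited by counting and a value of 0 allows 3 fragments.

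Log2(FPKM + 0.1) was fitted with limma 3.58.1 in R 4.3.3 (lmFit, eBayes with trend and robust), 1 coefficient per group over 12 libraries, for the 14676 genes that reached 1 FPKM in 3 or more libraries. A fold change on this scale understates changes of low genes. P-values are two-sided and Benjamini-Hochberg adjusted over all tested genes; the fit was tested on simulated data. A gene passed at an adjusted p under 0.05, and was called differentially expressed when its absolute log2 fold change was also over 1.5. Members and lists were chosen with earlier results of these data known. Of pathway genes, up to 3 differentially expressed genes with the largest change between CSA and CFA per list are named, together with defining cell type markers, the targeted gene and the 3 genes of mean FPKM of at least 1 nearest each member. Alternatives were other pseudocounts, filters, scalings, eBayes settings, array weights, fits of only the compared groups, no fold limit and leaving out each mouse. Leaving out the libraries with skeletal muscle transcripts and taking Ramp2 over its unshared bases were chosen after seeing the data. Figures used matplotlib 3.10.9, and tables used numpy 2.4.6 with pandas 2.3.3 in Python 3.11.15.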

Additional observations from a re-analysis of the deposited data

Results flagged for a closer look

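The genotype effect under Ang II differed from that under saline, by limma's test of the interaction (adjusted p under 0.05), for Adcy5, Mme, Pde3a, Pam, Akap12, Adcy9, Epas1, Pfkfb4 and Arrb2. Of all 14676 tested genes 26.4% passed this test. The genes listed were named for their size of change between CSA and CFA, which enters the interaction, so their passing was largely fixed by the choice and is no independent result. Dpp4 entered the fit only through its CSA libraries, so its value is given without a test. On the log2 scale the effect under Ang II minus that under saline was -3.91 for Adcy5, -3.02 for Mme, -2.18 for Pde3a, -2.00 for Pam, -2.00 for Akap12, -1.99 for Adcy9 and -1.92 for Epas1. It was 2.06 for Pfkfb4, 2.46 for Dpp4 and 2.76 for Arrb2. The same difference was not tested for the 5 members.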

How the results depend on the processing

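No paired analysis was possible because the groups share no mouse number in the labels. Between CSA and CFA, Adm (-2.34 to -2.03) and Ramp1 (-2.89 to -2.34) kept their direction and call in all 22 alternatives, and Ramp3 ran from 1.80 to 3.41 in the 18 in which it entered, with both ends set by the pseudocount (1 and 0.01). Pseudocounts of 1 and 0.01 likewise gave Ramp3 2.10 and 5.18 between CSA and CSS and 0.21 and 1.34 between CFA and CFS. Leaving out 1 mouse at a time moved Ramp2 from -1.35 to -0.92 between CSA and CFA, where the call was lost without CFA mouse 74 (-0.92) or CSA mouse 02 (-1.12). It moved Calcrl from -0.20 to 0.04 between CSA and CFA, from -0.08 to 0.38 between CFA and CFS and from -0.23 to 0.16 between CSA and CSS, and Ramp2 from -0.36 to 0.35 between CFA and CFS. Calcrl turned sign between CSA and CFA without CFA mouse 74 (0.04), without CSA mouse 01 (0.01) and with FPKM scaled to the same total (0.01), and between CFA and CFS without CFS mouse 69 (-0.08). Between CSA and CSS it turned without CSS mouse 55 (0.16), CSA mouse 01 (0.04), CSA mouse 02 (0.03) or the 2 libraries with skeletal muscle transcripts (0.16). Ramp2 turned between CFA and CFS with array weights (-0.11), without CFS mouse 69 (-0.36) and without CFA mouse 74 (-0.17). None of these turned values passed the test. With a pseudocount of 1, Adm was -1.35 between CSA and CSS, and the interaction was -0.75 for Adm and 1.90 for Ramp3. The Ramp1 interaction ran from -3.02 to -2.47 over single mice left out, with -2.47 without CSA mouse 03. Differentially expressed pathway genes up, Dpp4 included where it entered, numbered 1 at a mean FPKM of at least 5 and 9 without the fold limit, and 15 were down without it. For hypoxia genes these were 0 up at a mean FPKM of at least 5, and 2 up and 3 down without the fold limit. With Ramp2 over its unshared exonic bases, an alternative chosen after seeing the data, Ramp1 and Ramp2 took 50.2% and 49.7% of the RAMP sum in CSS, and Ramp2 and Ramp3 took 62.9% and 15.3% in CSA. The cause of these shifts was not tested, except that fewer genes enter at the higher filter, more pass without the fold limit, and Ramp2 rises by construction. Over all tested genes, differentially expressed counts ranged from 452 to 2864 up and 643 to 3114 down between CSA and CFA, from 526 to 3277 up and 746 to 3504 down between CSA and CSS, from 0 to 22 up and 0 to 13 down between CSS and CFS, and from 0 to 133 up and 0 to 14 down between CFA and CFS. Ramp3 in the groups other than CSA is limited by depth, with at most 17 fragments a library.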
